A study of Mus musculus with 2 samples.

Results

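The cytosolic ribosomal protein genes encode the proteins that, with ribosomal RNA, build the small and large subunits of the ribosome, including the acidic stalk (Rplp0, Rplp1 and Rplp2) to which translation factors bind. They are expressed in nearly every cell, and each ribosome needs a full set of them. Their promoters are known for compact stretches of open chromatin, for transcription that starts inside a run of pyrimidines, and for mRNAs whose terminal oligopyrimidine (TOP) start places their translation under mTOR and Larp1. In neurons, which translate in dendrites and axons as well as in the cell body, they are among the most abundant mRNAs. Members were chosen by gene symbol alone (Rps or Rpl with a number, and Rpsa, Rplp0, Rplp1 and Rplp2), from the autosomal protein-coding genes of the GENCODE M21 annotation, without like-genes and kinase genes. This gave 73 of 20807 genes, made up of 30 small-subunit, 40 large-subunit and 3 stalk proteins, and 4 X-linked genes (Rpl10, Rpl36a, Rpl39 and Rps4x) stood outside the rule.

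DNase-seq reads open chromatin from the places where the enzyme DNase I cuts. The tissue was the left cerebral cortex, from male mice of the hybrid strain B6CASTF1/J aged 8 to 10 months. There were 2 libraries, labelled biological replicates 1 and 2, in 1 group with no treatment or genotype contrast. Both carry the same donor identifier, so the SDs below measure only the spread between these libraries, which may be technical, and a whole piece of cortex mixes many cell types, so fewer cells of a type and less open DNA per cell cannot be told apart.

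Each library had 2 peak lists, and the shorter, of narrow peaks, was used: 40705 in replicate 1 and 39508 in replicate 2, with 166128 and 174394 footprints, short stretches protected from cutting inside open DNA. Read totals are not given in these files, so depth is unknown. A promoter peak was a narrow peak within 1000 bp of any annotated start of a gene, and the deposited signal of the strongest such peak is called promoter strength. Of 7 markers of telencephalon and cortex, 4 had a promoter peak in both libraries, Neurod6 and Tbr1 among them, Emx1 and Lhx2 had one in 1 library and Slc17a7 in neither, while 0 of 7 markers of other tissues had one in either.

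The promoter sequences on which the results turn are printed here, from 60 bases before the principal annotated start to 20 bases after it, 5′ to 3′ on the strand of the gene, from the GRCm38 (mm10) reference. Capitals mark literal matches on either strand to short motifs known for transcription factors: CCGGAAG for ETS factors such as Gabpa, TCTCGCGAG for Zbtb33 (Kaiso), GCGCATGCG for Nrf1, TGACGTCA for Creb-type factors (CRE), GGGCGG for Sp1, CCAAT for Nfy and TATAAA for the TATA box. They also mark CTTTC and CTTTT on the strand of the gene from 10 bases before the start onwards, the letters of a pyrimidine-rich start. The first group holds the Zbtb33 letters.
Rpl10a (mm10, chr17:28328508-28328588, plus strand): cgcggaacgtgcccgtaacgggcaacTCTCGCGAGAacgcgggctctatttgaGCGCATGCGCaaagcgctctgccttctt
Rpl26 (mm10, chr11:68901523-68901603, plus strand): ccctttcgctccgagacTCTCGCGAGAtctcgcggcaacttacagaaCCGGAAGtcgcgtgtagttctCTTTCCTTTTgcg
Rps6 (mm10, chr4:86857392-86857472, minus strand): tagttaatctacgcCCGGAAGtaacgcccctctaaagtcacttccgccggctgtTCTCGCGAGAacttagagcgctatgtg
Rps28 (mm10, chr17:33824542-33824622, minus strand): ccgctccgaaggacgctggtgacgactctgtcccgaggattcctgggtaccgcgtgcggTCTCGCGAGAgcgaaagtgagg
The second group holds ETS, CRE or Nrf1 letters that lie in a footprint of both libraries.
Rpl37 (mm10, chr15:5116585-5116665, plus strand): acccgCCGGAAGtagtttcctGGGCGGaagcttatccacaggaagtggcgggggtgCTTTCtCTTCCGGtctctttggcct
Rps7 (mm10, chr12:28635933-28636013, minus strand): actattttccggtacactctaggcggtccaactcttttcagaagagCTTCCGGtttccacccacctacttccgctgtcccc
Rps21 (mm10, chr2:180257317-180257397, plus strand): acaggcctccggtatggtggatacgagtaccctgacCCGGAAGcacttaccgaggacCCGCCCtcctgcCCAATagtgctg
Rpl13 (mm10, chr8:123102290-123102370, plus strand): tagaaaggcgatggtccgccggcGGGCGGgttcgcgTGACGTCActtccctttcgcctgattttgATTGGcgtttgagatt
Rps9 (mm10, chr7:3703933-3704013, plus strand): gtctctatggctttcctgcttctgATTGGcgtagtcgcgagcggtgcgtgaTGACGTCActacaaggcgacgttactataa
Rpl37a (mm10, chr1:72711230-72711310, plus strand): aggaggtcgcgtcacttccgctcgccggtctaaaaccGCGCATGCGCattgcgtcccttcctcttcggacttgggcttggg
The third group shows a TATA box before the start (Rps2), pyrimidine-rich starts (Rps24 and Rps27), and the promoters with the strongest and the weakest peak of all 73 genes (Rplp0 and Rpl6).
Rps2 (mm10, chr17:24720050-24720130, plus strand): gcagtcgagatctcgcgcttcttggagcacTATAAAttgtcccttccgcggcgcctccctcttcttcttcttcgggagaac
Rps24 (mm10, chr14:24490658-24490738, plus strand): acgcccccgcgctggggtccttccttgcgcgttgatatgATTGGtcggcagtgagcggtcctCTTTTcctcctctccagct
Rps27 (mm10, chr3:90213631-90213711, minus strand): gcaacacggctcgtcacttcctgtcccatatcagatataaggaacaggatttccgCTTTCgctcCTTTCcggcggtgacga
Rplp0 (mm10, chr5:115559407-115559487, plus strand): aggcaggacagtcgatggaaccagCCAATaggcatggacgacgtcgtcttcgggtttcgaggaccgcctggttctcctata
Rpl6 (mm10, chr5:121204421-121204501, plus strand): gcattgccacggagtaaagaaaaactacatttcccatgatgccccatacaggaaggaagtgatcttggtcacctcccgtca

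Every ribosomal protein gene had a peak of open chromatin within 1000 bp of an annotated start. Such a peak can lie away from the principal start or near the start of another gene, as described further on. All 73 had at least 1 promoter peak in each library, against 56.0% of the autosomal protein-coding genes (11656 of 20807). Median promoter strength was 4.21 in replicate 1 and 3.57 in replicate 2 for the ribosomal protein genes, a mean of 3.89 ± 0.449 (SD, n = 2 libraries), against 2.73 and 2.38 for all genes with a peak. The ratio of these medians was 1.52 ± 0.0281 (SD, n = 2 libraries). Of the 73 genes, 62 stood above the median of all genes in both libraries, where 46.7% of genes with a peak in both did, and 11 stood in the top 10% in both, where 7.34% did. No test accompanies these values, since the design holds 1 group and genes are not replicates.

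**Figure D1:**
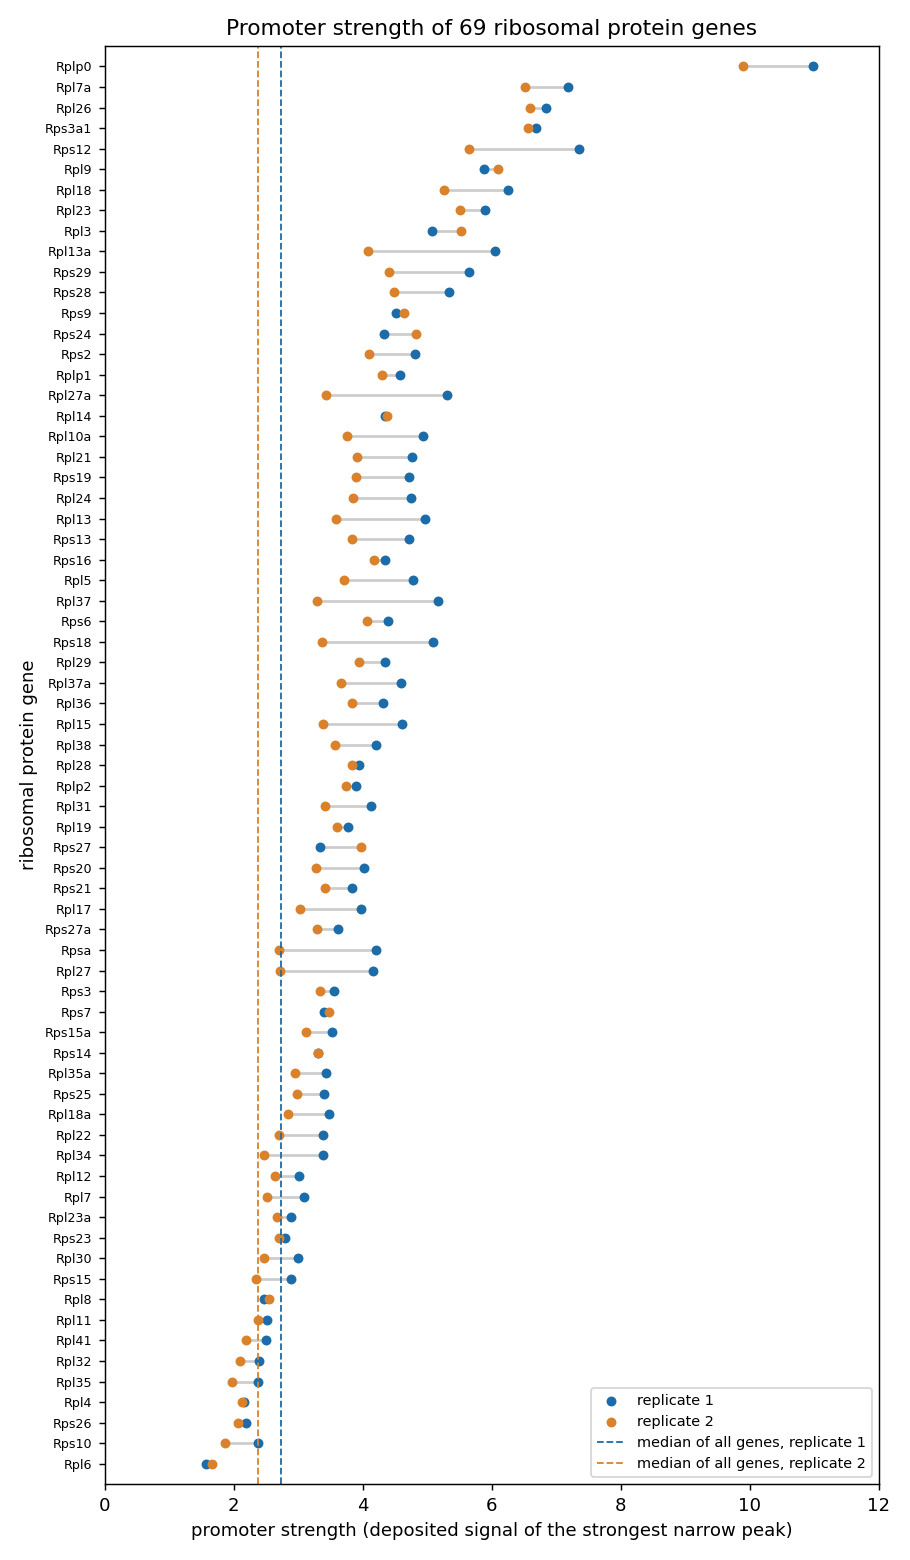
Promoter strength (deposited signal of the strongest narrow peak, linear axis) of each of 69 ribosomal protein genes, ordered by the mean of both libraries, with blue points for replicate 1, orange points for replicate 2 and dashed lines at the median of all genes in each library. Rplp0 stands apart at 10.98 and 9.90, and Rpl6 is lowest at 1.57 and 1.67.

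Rplp0, the base of the ribosomal stalk, had the strongest promoter of the family. Its peak had a strength of 10.98 in replicate 1 and 9.90 in replicate 2 (mean 10.4 ± 0.769), at the 99.9th and 99.8th percentile of all genes with a peak. The other stalk genes were nearer the middle of the family, Rplp1 at 4.58 and 4.30 and Rplp2 at 3.90 and 3.73. Rplp0 lay above every other member in both libraries.

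Among the large-subunit genes, Rpl7a had the highest mean, with 7.18 in replicate 1 and 6.52 in replicate 2, where Rpl26 was slightly higher. Rpl26, whose protein lies near the exit of the peptide tunnel, had 6.83 and 6.59. Rpl9 had 5.88 and 6.10, and Rpl23 had 5.89 and 5.51. All 4 stood in the top 10% of genes in both libraries. Rpl3, a protein of the peptidyl transferase region, had 5.07 and 5.52, and Rpl13a had 6.05 and 4.07, each in the top 10% of 1 library only. Rpl18 had 6.26 and 5.26, but this peak lies far from its principal start, over other annotated starts described further on. Within 1000 bp of its principal start Rpl18 had 4.71 and 2.88.

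Among the small-subunit genes, Rps3a1 and Rps12 were strongest. Rps3a1 had 6.68 in replicate 1 and 6.56 in replicate 2, with nearly equal values in both libraries, and Rps12 had 7.35 and 5.65. Rps29 and Rps28 also stood in the top 10% in both libraries, with means of 5.03 and 4.91. As groups the subunits were close together. The small-subunit genes had a median of 4.26 and 3.54, and the large-subunit genes 4.18 and 3.42, a difference that was not tested.

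The weak end of the family held 11 genes that fell below the median of all genes in at least 1 library. Rpl6 was lowest, at 1.57 in replicate 1 and 1.67 in replicate 2, the 22.7th and 28.7th percentile of all genes with a peak. Rps10 and Rps26, both known from human Diamond-Blackfan anaemia, had means of 2.12 and 2.13. Rpl4, which lines the peptide tunnel, had 2.14 and Rpl35 had 2.17. Other weak genes were Rpl32 (mean 2.24), Rpl41 (2.34), Rpl11 (2.44), which with Rpl5 binds Mdm2 when ribosome assembly is disturbed, Rpl8 (2.51) and Rps15 (2.62). Of these, Rpl8 was below the median of all genes in replicate 1 only and Rps15 in replicate 2 only. Even so, each of the 11 had a peak in both libraries. The Rpl5 promoter was stronger than that of its partner Rpl11, at 4.78 and 3.70 against 2.51 and 2.37.

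Other well-known members lay between these ends. Rps6, the substrate of the S6 kinases, had 4.39 in replicate 1 and 4.06 in replicate 2. Rps19, the gene first linked to Diamond-Blackfan anaemia in humans, had 4.72 and 3.90. Rpl24 and Rpl38, known from the mouse mutants Belly spot and tail and Tail short, had 4.75 and 3.85, and 4.21 and 3.57. Rpsa, also described as a laminin receptor, had 4.21 and 2.69, and Rps27a, which encodes a fusion with ubiquitin, had 3.62 and 3.30.

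Ribosomal protein genes also had a higher median promoter strength than 3 other housekeeping families, by differing margins; the differences were not tested. Median strength for the ribosomal protein genes was 1.34 ± 0.0591 times that of the mitochondrial ribosomal proteins (78 genes, medians 3.05 and 2.75). It was 1.27 ± 0.0115 times that of the proteasome subunits (38 genes, 3.29 and 2.83), and 1.13 ± 0.00627 times that of the oxidative phosphorylation subunits (83 genes, 3.72 and 3.14; SDs over n = 2 libraries). The medians leave out genes without a promoter peak, so they rest on 36 proteasome and 75 oxidative phosphorylation genes in each library. Each family spanned a broad range. Mrpl17 reached a mean of 7.99 and Mrps25 only 1.37 among mitochondrial ribosomal proteins, Psmb3 was highest among proteasome subunits at 5.70, and Atp5g1 highest among oxidative phosphorylation subunits at 5.99. The weakest entries of the last 2 families lacked a narrow peak in at least 1 library, among them Psmb11, a thymus proteasome subunit, with none, and Cyc1 with a peak in replicate 2 only. A promoter peak in both libraries was found for 78 of 78 mitochondrial ribosomal, 36 of 38 proteasome and 74 of 83 oxidative phosphorylation genes. The 3 families were taken by symbol pattern, which does not separate core subunits from isoforms. Oxidative phosphorylation entries without a peak in both libraries were Cyc1, an additional Atp5o record, Cox4i2, Cox6a2, Cox6b2, Cox7a1, Cox7b2, Cox8b and Cox8c.

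**Figure D2:**
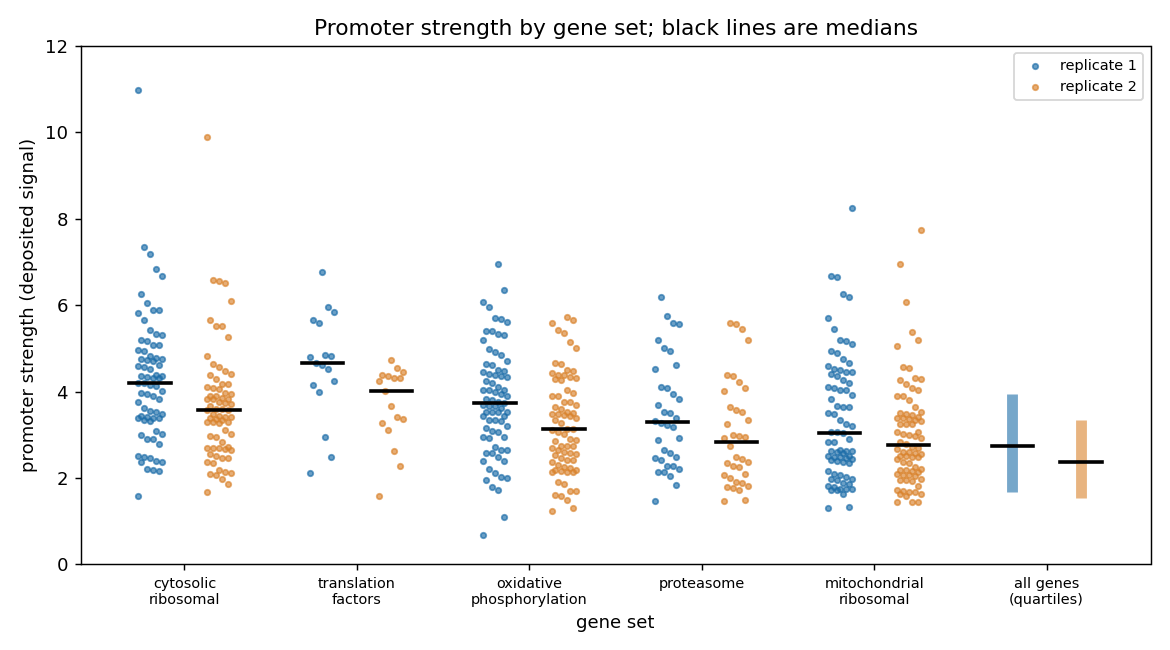
Promoter strength (deposited signal) per gene for the cytosolic ribosomal protein genes, translation factors and 3 housekeeping families, with quartile bars for all genes with a peak, replicate 1 in blue and replicate 2 in orange. Black lines are medians, 4.21 and 3.57 for the ribosomal protein genes and 2.73 and 2.38 for all genes.

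Base composition was close to that of other promoters with peaks. The window from 250 bp before to 50 bp from the start had a median GC content of 56% in the ribosomal protein genes, against 61% for all genes with a peak in both libraries, and 71.2% of the members were rich in CpG, against 69.7%. Read only against CpG-rich promoters, whose medians were 3.06 and 2.63, 58 of the 73 genes were stronger in replicate 1 and 59 in replicate 2. The weak members included low GC contents, with 36.7% for Rpl41, 39.3% for Rpl4 and 41.7% for Rpl35; the part of base composition in strength was not tested. Most promoters were unique in sequence, with a median of 100% of the 32-base words in the 250 bp before the start occurring at no other place in the genome and a lowest share of 48.4%. The transcribed side can resemble processed pseudogenes. Within 500 bp on either side of the start the share was lowest for Rps29 at 59.3% and Rpl24 at 68.8%, so peak edges there may be less exact. For Rps29 the share was 48.4% in the 250 bp before the start and 64.8% in the 250 bp after it. Words near Rpl24 had up to 29693 copies. The source of the repeated words was not examined.

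The promoter peaks were of ordinary width. Median width was 260 bp in replicate 1 and 280 bp in replicate 2 for the ribosomal protein genes, the same as for all genes. Strength and width were nearly unrelated across the 73 genes (Spearman's rho −0.06 in replicate 1 and −0.16 in replicate 2, a description across genes). The widest peak belonged to Rps19, at 720 bp in replicate 1 and 680 bp in replicate 2. Rplp2 had 480 and 500 bp, Rpl30 had 540 and 400 bp, Rps18 had 380 and 540 bp and Rpl13a had 400 and 520 bp. The narrowest mean width was that of Rpl27a, with 160 and 60 bp, followed by Rpl19 (120 and 220 bp), Rpl17 (160 and 180 bp), Rpl4 (180 and 200 bp) and Rpsa (220 and 160 bp). The peak was the only narrow peak in the promoter window for 69.9% of the family in replicate 1 and 75.3% in replicate 2, against 54.7% and 52.0% of all genes. The other housekeeping families had similar shares, 76.9% and 73.1% for mitochondrial ribosomal, 75% and 77.8% for proteasome and 68% in both libraries for oxidative phosphorylation genes.

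Peaks of ribosomal protein genes were centred near the start. The median centre was 2.5 bp upstream of the principal start in replicate 1 (−2.5) and 0.5 bp downstream in replicate 2, against −31.5 and −24.5 for all genes. With peaks near the principal transcript only, the mean over both libraries was −11 bp in place of −1 bp. In replicate 1, 72.6% of centres lay within 100 bp of the start, and in replicate 2 64.4%, against 49.2% and 45.2% of all genes. The strongest peak covered the principal start in both libraries for 55 of 73 genes, where 54.4% of genes with a peak in both did, and it covered some annotated start in both for 64, where 68.7% did. At 75 to 99 bp downstream, peaks covered 68.5% and 74.0% of the ribosomal protein genes, against 46.2% and 51.7% of all genes. The other housekeeping families had similar shares, with strongest peaks over the start in 73.1% to 86.1% of their genes with a peak per library, and differences from them were not tested.

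**Figure D3:**
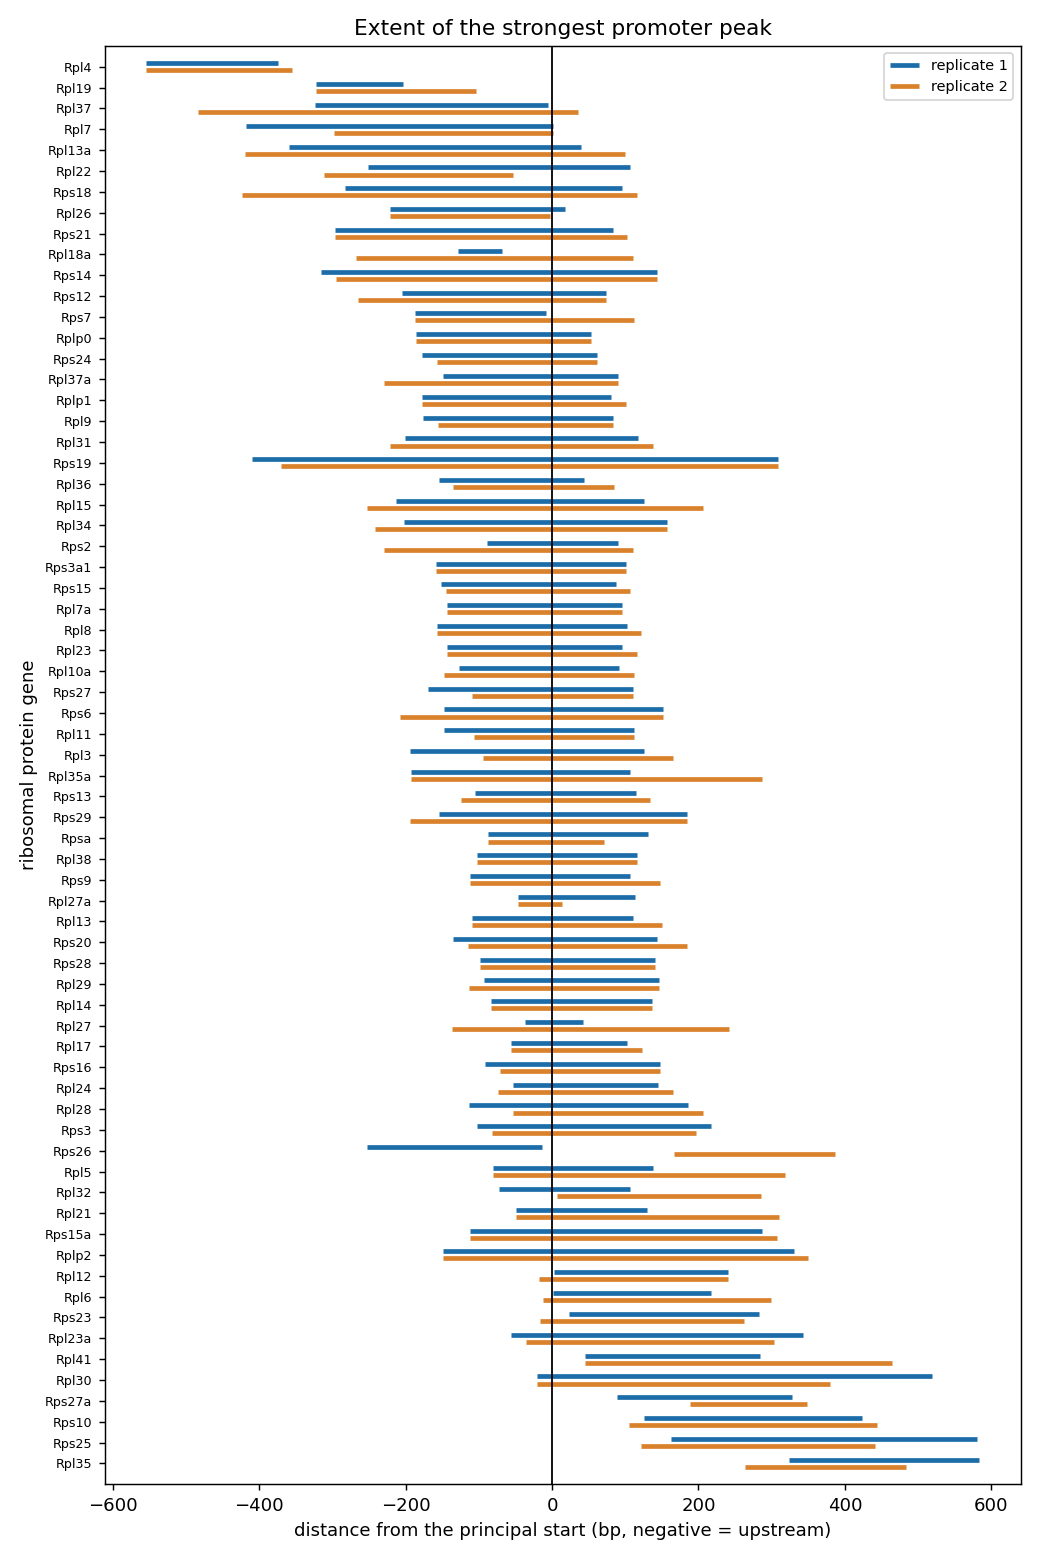
Extent of the strongest promoter peak of 68 ribosomal protein genes relative to the principal start (bp, negative upstream), replicate 1 in blue and replicate 2 in orange, ordered by mean centre. Rpl18 is left out because its strongest peak is centred 2563.5 bp downstream. Rpl4 and Rpl19 lie upstream of the line, and Rps27a, Rps10, Rps25 and Rpl35 lie downstream of it.

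For 9 of the 73 genes the strongest peak missed the principal start in both libraries, against 3590 of the 11656 genes with a peak in both. The other families had 11 of 78 mitochondrial ribosomal, 5 of 36 proteasome and 13 of 74 oxidative phosphorylation genes. In most of the 9 ribosomal protein genes the peak lay on another annotated start. Rpl35 had its peak centred 453.5 bp downstream in replicate 1 and 373.5 bp in replicate 2. Rps10 had it at 274.5 bp in both. Rpl35 and Rps10 were also the only members with no base at an FDR of 0.001 or less within 50 bp of the principal start, in either library, whereas 71 of 73 ribosomal protein genes had such a base, against 48.6% and 48.7% of all genes. The start that RefSeq gives lies 493 bp downstream for Rpl35, inside the replicate 1 peak, and 301 bp downstream for Rps10, inside both peaks. For Rpl41 the peak was centred at 164.5 and 254.5 bp with the RefSeq start at 137 bp, inside both peaks. For Rps25 it was centred at 371.5 and 281.5 bp, with the RefSeq start at 575 bp inside the replicate 1 peak. Rps27a, at 208.5 and 268.5 bp, and Rpl19, at −263.5 and −213.5 bp, had another GENCODE start inside the peak of both libraries. Another protein-coding gene starts near the strongest peak of Rpl35 (Arpc5l), Rps25 (Trappc4), Rps27a (Clhc1) and Rps10 (RPS10-NUDT3) as well.

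The other 3 of the 9 were Rpl18, Rpl4 and Rps26. Rpl18 had its strongest peak at 2563.5 bp in both libraries, over alternative starts of its own and near the start of Sphk2. The start that RefSeq gives for Rpl18 lies 2614 bp downstream, inside this peak in both libraries. Rpl18 also had a peak within 1000 bp of the principal start. Rpl4 had its strongest peak at −464.5 and −454.5 bp, on the side of its divergent neighbour Zwilch, whose start is 271 bp away, with no Rpl4 start within 355 bp of the peak. The Rpl4 start itself was open, with a lowest FDR within 50 bp of 5.0e-11 in replicate 1 and 3.7e-05 in replicate 2. Rps26 was the only member whose strongest peaks did not overlap between the libraries, at −133.5 bp in replicate 1 and 276.5 bp in replicate 2, with almost equal strengths of 2.19 and 2.06. Of these 9 genes, 5 (Rps10, Rps26, Rpl4, Rpl35 and Rpl41) were among the 10 weakest promoters, and the part of start annotation in their strength was not tested.

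Each ribosomal protein promoter peak held a median of 5 footprints in each library, against 4 in replicate 1 and 5 in replicate 2 for all genes. Per 100 bp of peak the ribosomal protein genes had 1.80 and 1.75 footprints, against 1.60 and 1.56 for all genes. In total there were 362 footprints in replicate 1, of which 70.7% overlapped a footprint of replicate 2, and 393 in replicate 2, of which 66.7% overlapped one of replicate 1. For all genes these shares were 63.7% and 59.4%. The number per gene was much less steady than strength: Spearman's rho between libraries over the 73 genes was 0.32 for footprints, 0.54 for width and 0.86 for strength. Rps19 had the most, 10 and 15, in the widest peak, followed by Rps18 with 9 and 12, Rpl35a with 8 and 11 and Rpl31 with 9 in both. Fewest were found for Rpl32, with 2 and 0, Rpl27a with 3 and 0, Rps2 with 1 and 4 and Rpl27 with 2 and 3. The low counts of Rpl27a in replicate 2 and of Rpl27 in replicate 1 go with peaks of 60 and 80 bp. The Rpl27a peak in replicate 2 ran from −46 to 13 bp. Footprints from −58 to −36 bp and from 1 to 33 bp had midpoints outside it. They were not counted here but enter the motif results below.

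Footprints of the family straddled the start. For the median positions and upstream shares they were counted only inside the strongest peak, so these values follow in part where that peak lies. Their median position was −10.5 bp in replicate 1 and −7 bp in replicate 2, against −39.5 and −32 for all genes, and 53.9% and 53.2% lay upstream, against 60.5% and 57.7%. Between 50 and 25 bp before the start, 47.9% of the ribosomal protein genes in replicate 1 and 39.7% in replicate 2 had a footprint midpoint, against 33.5% and 32.4% of all genes with a peak. Between 50 and 74 bp after the start the shares were 38.4% and 37.0%, against 23.1% and 24.8%, and between 100 and 124 bp after it 27.4% and 30.1%, against 13.0% and 15.8%. In the first 25 bp after the start, replicate 1 gave 28.8% against 29.8%, with no excess, and replicate 2 gave 37.0% against 30.1%. The other housekeeping families had footprints as near the start, with median positions of −7 and 6.25 bp for mitochondrial ribosomal, −6.5 and 5 bp for proteasome and −11 and 19.5 bp for oxidative phosphorylation genes.

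**Figure D4:**
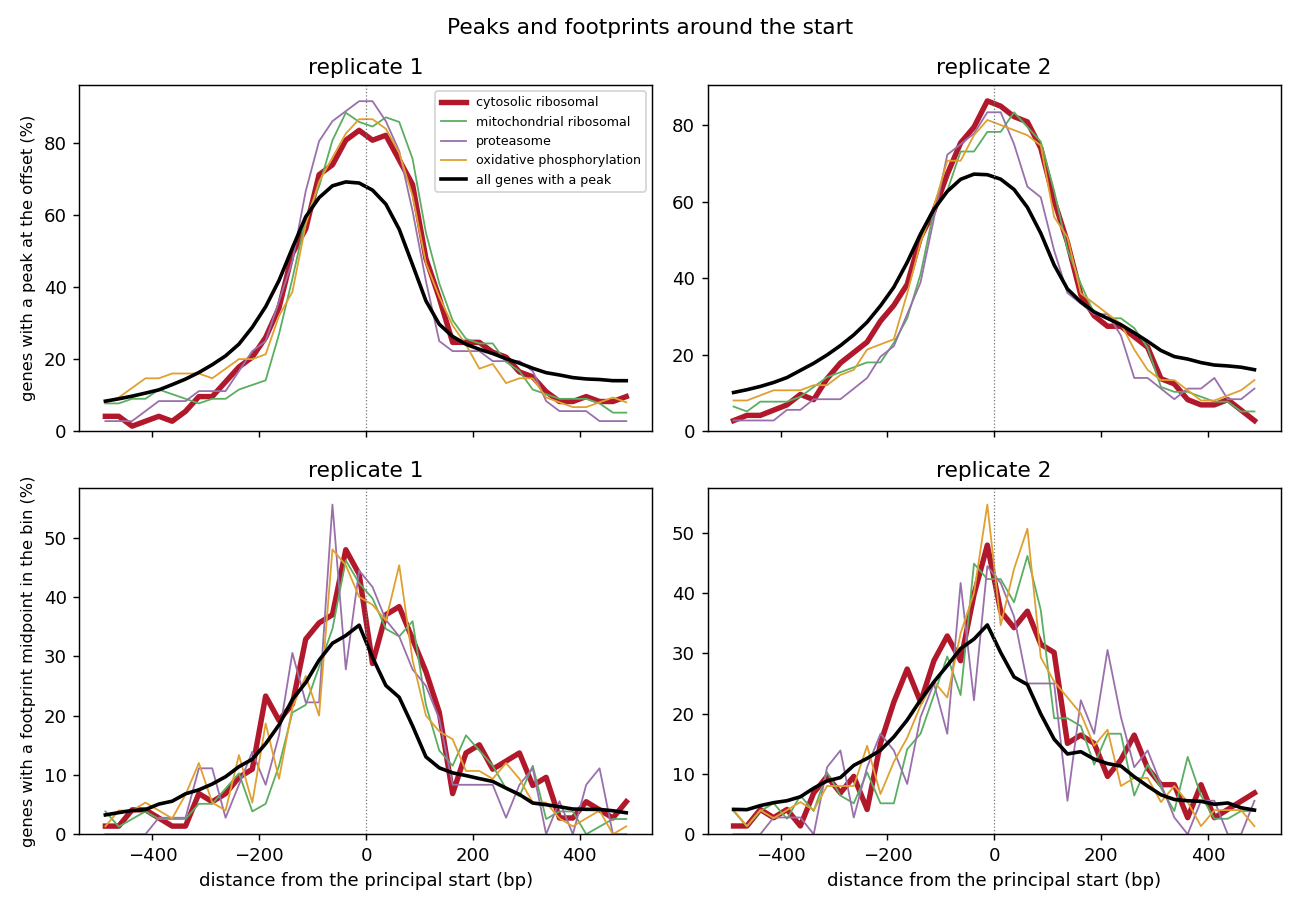
Percent of genes with a peak covering each offset (top) and with a footprint midpoint in each 25 bp bin (bottom), by distance from the principal start (bp), for replicate 1 (left) and replicate 2 (right), over genes with a promoter peak. The red line of the ribosomal protein genes runs above the black line of all genes from the start to 125 bp downstream for peaks, along with the thinner lines of the other housekeeping families.

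The Zbtb33 letters TCTCGCGAG had the largest ratio to the background of the 10 motifs searched. The name is only that of the motif, and the factor bound at these letters was not measured. They occurred in 9 of 73 ribosomal protein promoters (12.3%), against 1.42% of all genes with a peak in both libraries, and in 2.56% of mitochondrial ribosomal, 5.26% of proteasome and 2.41% of oxidative phosphorylation promoters. The window ran from 250 bp before to 50 bp from the start, on both strands, and a longer palindrome is counted as both strands in 7 of the 9. They included Rpl10a, Rpl17, Rpl26, Rpl27a, Rpl4, Rps28 and Rps6. In 5 of the 9, Rpl17, Rpl26, Rpl27a and Rps28 among them, a footprint covered the middle of the motif in both libraries, 6.85% of the family, against 0.480% of all genes with a peak in both. In Rpl26, printed above, the motif is centred 39 bp before the start and the footprint ran from −52 to −30 bp in replicate 1 and from −58 to −26 bp in replicate 2. In Rps28 it is centred 3 bp after the start, under footprints from 3 to 12 bp in replicate 1 and from −1 to 16 bp in replicate 2. The matches of Rps6, 2 bp before the start, and of Rpl4, 239 bp before it, had no footprint in either library. Rpl10a had one over its match in replicate 2 only. The 9 promoters had a median strength of 5.18 and 4.06, against 4.15 and 3.44 for the other 64.

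The ETS letters CCGGAAG occurred in 24 ribosomal protein promoters (32.9%), against 18.0% of all genes with a peak in both libraries. The mitochondrial ribosomal and proteasome families had similar shares, 37.2% and 31.6%, and the oxidative phosphorylation family 16.9%. Few were under footprints: a footprint of both libraries covered the match in 4 promoters (5.48%), those of Rpl37, Rps21, Rps3a1 and Rps7, against 3.15% of all genes with a peak in both. Rps21 had its pair of matches, at −83 and −21 bp, under footprints in both libraries. In Rps7 the match at −11 bp lay under footprints from −16 to −4 bp in replicate 1 and from −16 to −10 bp in replicate 2. The 24 promoters with the letters had a median strength of 4.21 and 3.41, and the other 49 had 4.31 and 3.70.

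The TATA letters TATAAA occurred in 8 ribosomal protein promoters (11.0%), against 6.74% of all genes with a peak in both. Within 100 bp on either side of the start the shares were 11.0% and 3.41%, with 1.28% of mitochondrial ribosomal, 2.63% of proteasome and 3.61% of oxidative phosphorylation promoters. In 5 of the 8 (6.85% of the family), Rpl3, Rplp0, Rps2 and Rps28 among them, a footprint of both libraries covered the match, against 0.463% of all genes with a peak in both, which is 54 genes in all. In the mitochondrial ribosomal and proteasome families no promoter did so, and in the oxidative phosphorylation family 1 did. Rps2 carried the match centred 27.5 bp before the start, the place of a usual TATA box, under footprints from −37 to −4 bp in replicate 1 and from −38 to 5 bp in replicate 2. In Rplp0, the strongest promoter, the match is centred 19.5 bp after the annotated start, under footprints from 8 to 42 bp in replicate 1 and from 10 to 41 bp in replicate 2. In Rps28 it lay at 39.5 bp after the start. In Rpl3 the letters are read on the opposite strand, at 25.5 bp. These positions depend on which annotated start is the one used in cortex, which was not measured here.

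A pyrimidine-rich start had a higher share than the background in both windows searched. The windows, and the runs below, are placed by the principal annotated start, and the start used in cortex was not measured. Of the 53 members with a RefSeq start, 15 had the nearest one within 10 bp of the principal start. The median distance over the 53 was 34 bp. CTTTC or CTTTT on the strand of the gene lay within 10 bp of the principal start in 7 genes (9.59%), against 3.29% of all genes with a peak in both, and within 50 bp in 28 genes (38.4%), against 15.9%. In the other families the narrower window gave 5.13% of mitochondrial ribosomal, 0% of proteasome and 8.43% of oxidative phosphorylation genes, the last close to the ribosomal protein genes. The wider window gave 16.7% of mitochondrial ribosomal, 13.2% of proteasome and 24.1% of oxidative phosphorylation genes. A run of at least 5 pyrimidines touching the start was found in 34 genes (46.6%), against 30.3% of all genes with a peak in both. The proteasome subunits had 47.4%, oxidative phosphorylation 39.8% and mitochondrial ribosomal genes 35.9%. The longest runs of the family were in Rps2 (20 bases), Rps24 (19) and Rpl32 (17). The median position of the CTTTC or CTTTT letters in the wider window was 8 bp after the annotated start. Promoters with these letters in the wider window had median strengths of 4.17 and 3.52, and those without 4.34 and 3.60, a difference that was not tested.

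Other motifs were rarer or near the background. GGGCGG occurred in 47.9% of the ribosomal protein promoters, fewer than the 64.1% of all genes with a peak in both, yet 24.7% had it in a footprint of both libraries, against 28.1%. CCAAT occurred in 30.1%, against 39.0%. The CRE letters TGACGTCA occurred in 5 promoters (6.85%, against 3.77%), with a footprint of both libraries in 3, Rpl13, Rpl27a and Rps9 (4.11%, against 2.69%). In Rps9 the match at −5.5 bp lay under footprints from −17 to 5 bp and from −18 to 4 bp. The Nrf1 letters GCGCATGCG occurred in Rpl10a and Rpl37a (2.74%, against 3.76%), each under a footprint in both libraries, as in 3.03% of all genes with a peak in both; in Rpl37a the footprint ran from −27 to −9 bp in replicate 1 and from −26 to −10 bp in replicate 2. The Yy1 letters AAGATGGC occurred in 6.85% (against 4.86%), the E-box CACGTG in 13.7% (against 10.2%), and the Znf143 letters ACTACAATT in Rpl23a and Rps27a, 2.74% (against 0.858%).

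**Figure D5:**
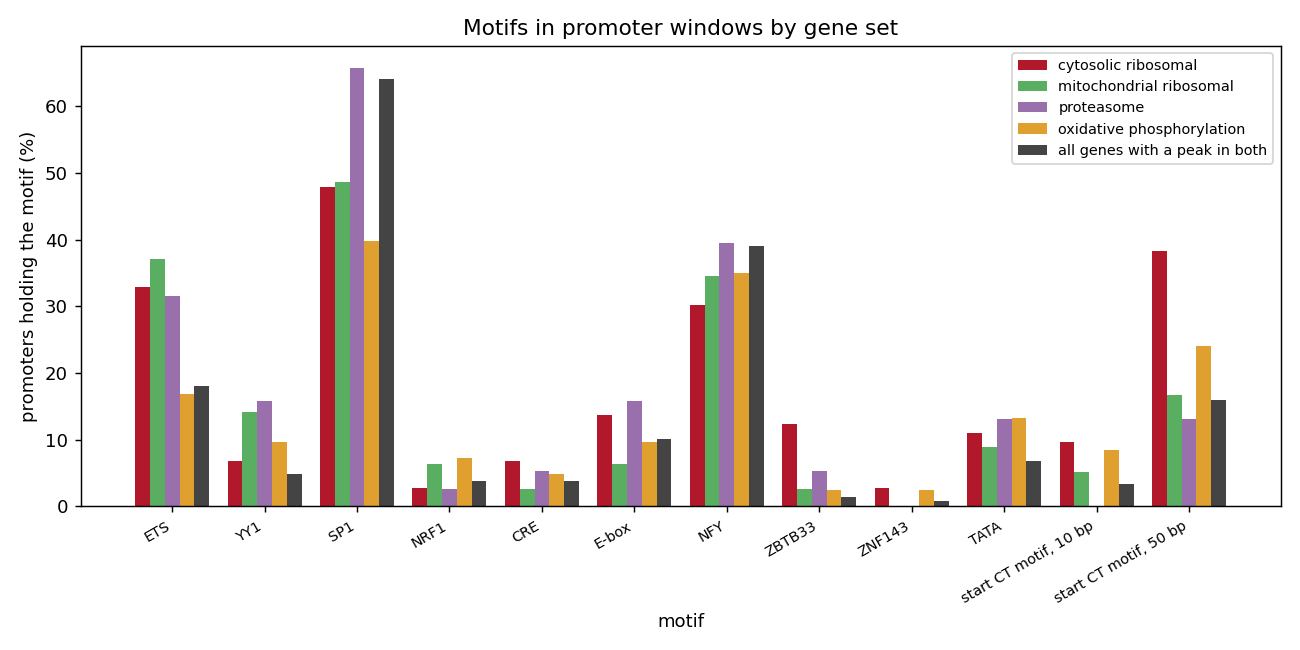
Percent of promoters holding each motif in the cytosolic ribosomal protein genes, 3 other housekeeping families and all genes with peaks in each library. The ribosomal protein bar is 12.3% for ZBTB33 and 38.4% for the pyrimidine-rich start within 50 bp, against 1.42% and 15.9% for all genes with a peak.

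Many ribosomal protein genes carry small nucleolar RNAs in their introns, which guide the modification of ribosomal RNA. By the annotation 28 of the 73 genes held 56 of them, with 5 in Rpl4 and 4 in Rpl13a. The hosts had a median strength of 4.53 in replicate 1 and 3.51 in replicate 2, against 4.16 and 3.57 for the 45 without. The difference changed direction between the libraries and was not tested. Peaks of the hosts were centred further downstream, at a median of 12.5 and 34 bp, against −29.5 and −17.5 bp. For 8 genes another protein-coding gene starts within 1000 bp in the opposite direction. The strongest of these were Rpl7a (with Med22, 195 bp apart), Rpl9 (with Lias, 53 bp) and Rps28 (with Ndufa7, 10 bp), and the 8 had a median of 4.84 and 3.37, against 4.21 and 3.58 for the other 65. In all, 15 members had another protein-coding start within 1000 bp of the strongest peak, and strength there cannot be assigned to either gene.

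The libraries ranked the members similarly. Spearman's rho of strength was 0.86 and Pearson's r 0.92 over the 73 genes, a description across genes, and Spearman's rho was 0.94 over all genes with a peak in both. Strength was higher in replicate 1 for 64 of the 73 genes, as for 73.4% of all genes, with a median ratio of 1.14, against 1.13 for all genes. Among the largest log2 ratios of replicate 1 to replicate 2 were 0.65 for Rpl37 (5.17 and 3.30), 0.64 for Rpsa (4.21 and 2.69) and 0.63 for Rpl27a (5.30 and 3.43). In the other direction they were −0.25 for Rps27 (3.34 and 3.97), −0.16 for Rps24 (4.32 and 4.82) and −0.12 for Rpl3. The strongest peaks of the libraries overlapped in 72 of 73 genes, with a median distance of 20 bp between their centres.

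Genes that work with ribosomal proteins had promoter peaks as well. All 17 translation factors and partners with a TOP start in textbook accounts had a promoter peak in both libraries, with a median of 4.66 in replicate 1 and 4.01 in replicate 2, and 15 of them stood above the median of all genes in both. Npm1, a nucleolar chaperone, was strongest in replicate 1 at 6.78. It had 4.36 in replicate 2, where the highest of the 17 was 4.72. Eef2 had 5.67 and 4.56, Eef1a1 had 4.51 and 4.31, and Eif3h was weakest at 2.10 and 1.57. Fau, which encodes a ribosomal protein fused to a ubiquitin-like protein, had 5.10 and 4.55. The 18 makers and regulators of ribosomes had a median of 3.33 and 2.42. Nop56, a snoRNP protein, was strongest among them in replicate 1 at 8.54. It had 6.78 in replicate 2, where the highest of the 18 was 6.81. Mtor had 3.94 and 2.33, Myc had 1.31 and 1.48, and Larp1, the TOP mRNA-binding protein, was weakest at 1.27 and 1.18.

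A promoter peak was found at some like-genes and at few pseudogenes of the family. Of 6 like-genes matched in the annotation, Rpl22l1 (5.26 and 4.33), Rpl7l1 (2.94 and 2.01) and Rps27l (2.87 and 1.94) had a promoter peak in both libraries, while Rpl3l, known from heart and skeletal muscle, and Rpl10l and Rpl39l, known from testis, had none. Autosomal pseudogenes of any annotated type were chosen by symbol, Rpl or Rps with the ending -ps and any number, so those named otherwise are left out. Of these 259 pseudogenes, 5 had a narrow peak within 1000 bp of their start in both libraries. These were Rpl38-ps1 (3.64 and 4.04), Rpl29-ps2 (2.52 and 2.72), Rpl34-ps1 (1.90 and 1.90), Rpl5-ps2 (0.825 and 1.36) and Rps19-ps10 (0.635 and 0.546), and the Rpl29-ps2 peak lay near the start of the protein-coding gene Akr1e1. Reads that match several copies can be dropped or shared by an aligner, whose handling of them is not given in the sources used here, so a pseudogene without a peak is not shown to be closed.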

How the data were processed

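The authors deposited, for each DNase-seq library, 2 peak lists with a signal value per peak, a table of intervals with FDR values (false discovery rates, or q-values) that lists only values under 0.05, and footprint intervals. Per the notes deposited with the files, peaks and FDR values were made from the alignments of that library in mm10, and footprints from the FDR table and the alignments. For the peak caller, the aligner and the scaling of the signal, details are not given in the sources used. Within a library the signal was a whole multiple of 1 step (0.00948 in replicate 1, 0.00926 in replicate 2, tolerance 0.02 of a step), and it was compared without further scaling. The deposited value column of the footprints is constant and was not used, and the p-value unit applies only to the FDR table.

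Genes, starts and sequence came from GENCODE M21 and GRCm38.p6, with RefSeq starts from the GRCm38.p6 table, matched for 53 of 73 members. Promoter peaks overlapped the window of 1000 bp around any annotated start by at least 1 bp. Positions refer to the start of the principal transcript, chosen by APPRIS, transcript support and CCDS. Footprints were counted with the midpoint in the strongest peak. Motifs were searched as literal letters on both strands from 250 bp before to 50 bp from the start. They were called footprinted where a footprint held the middle base, also where its midpoint lay outside the strongest peak. Python 3.11.15, NumPy 2.4.6, SciPy 1.17.1, pysam 0.24.0 and Matplotlib 3.10.9 were used, and the overlap code was tested on simulated data. Members and lists were chosen with earlier results of these data known. Named genes were the 10 strongest and 10 weakest, the 4 widest, narrowest and most and least footprinted, those that differed most between libraries, the 3 farthest from the start, and the ends of each list; ties, members with known roles and genes singled out for a motif were named after their values were seen. Sets had no replicated contrast, so no p-value was computed. Depth is unknown. A few members and markers are not reported here by name or drawn singly; they stay in every count and median.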

Additional observations from a re-analysis of the deposited data

How the results depend on the processing

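All 73 ribosomal protein genes kept a promoter peak in both libraries with the larger peak list, the principal transcript only, a 500 bp window, joined peaks, the strongest 50% of peaks and a peak midpoint inside the window. The count above the median of all genes, 62, ranged from 56 (strongest 50% of peaks) to 63 over these settings and single libraries. Each library alone gave median strengths of 3.57 to 4.21, widths of 260 to 280 bp, 5 footprints, centres of −2.5 to 0.5 bp and footprint positions of −10.5 to −7 bp. The median centre, −1 bp as the mean of both libraries, was −11 bp with the principal transcript only, 1.5 bp with joined peaks and −6 bp without genes whose strongest peak is far from the start. The median footprint position, −8.75 bp, was −13 bp with the principal transcript only and −12.25 bp over all footprints within 200 bp of the start.

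The ratio of medians to all genes, 1.52, was 1.65 with the larger list, 1.49 with the principal transcript only and 1.38 with the strongest 50% of peaks. It was lowest with the sum of all peaks in the window, at 1.34 in replicate 1 and 1.20 in replicate 2. That to the proteasome was 1.25 with the principal transcript only. That to oxidative phosphorylation was 1.12 with the principal transcript only and 1.14 with the larger list and with the 500 bp window. Pseudogenes with a peak numbered 2 with the 500 bp window and 3 with the strongest 50% of peaks. By construction fewer promoters hold a motif in a footprint of both libraries: 5.48% for ETS, 1.37% for Yy1, 24.7% for Sp1, 4.11% for CRE, 2.74% for the E-box, 4.11% for Nfy, 6.85% for Zbtb33, 0% for Znf143 and 6.85% for the TATA box. Within 100 bp on either side of the start, the share was 4.11% for Nrf1 and 8.22% for the E-box. The pyrimidine-rich start, at 9.59% within 10 bp, was at 38.4% within 50 bp. The cause of the other shifts was not tested. The alternative settings of the comparisons with families, translation factors and pseudogenes, the centre without far peaks and the window of 50 bp were added after seeing the data. No paired analysis was possible because both libraries belong to 1 group.

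Unknown depth limits the reading of a missing peak, and alleles of the hybrid strain cannot be told apart in these files.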
